A study of Drosophila melanogaster with 35 samples.

Results

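The autophagy genes described here are Atg1, Atg5, Atg7, Atg8a, Atg9, Atg13, Atg16, Atg18a, ref(2)P and Mitf, in the fat body of adult female Drosophila melanogaster. They were chosen by name, with earlier results of these data known. All 10 were found by their FlyBase identifiers among the 14649 genes of the fat body count table. Poly(A) RNA was sequenced from flies aged 30 days, and 17 fat body libraries were used. The flies were mated females of the S106 line, a GeneSwitch driver that turns on a UAS transgene when the steroid RU486 is eaten, and both genotypes carried it. The 4 S106>UASfoxo switch libraries came from flies that also carried a UAS transgene for dFOXO and ate 200 µM RU486 for 21 days, followed by 7 days on control food. The 4 S106>UASfoxo control libraries had the same genotype and are labelled as without RU486 induction, although a treatment note shared by all samples names RU486. The 4 S106 switch libraries had the driver alone with the same RU486 schedule, and the 5 S106 control libraries had the driver alone without RU486. Which cells the driver reaches in these flies is not stated in the labels.

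Autophagy encloses cytoplasm in a double membrane, the autophagosome, which then fuses with a lysosome so that its content is broken down. The Atg1 kinase complex starts the process, vesicles carrying Atg9 supply membrane, and a pair of ubiquitin-like conjugation systems attach Atg8a to the growing membrane. ref(2)P, the fly p62, ties ubiquitinated cargo to Atg8a, and Mitf, the fly TFEB homologue, is a transcription factor for lysosomal and autophagy genes. In the fly fat body autophagy is known for its strong induction by starvation, and insulin signalling, which holds back dFOXO, restrains it.

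Total counts per library ran from 6708078 to 27527703. Levels are given as CPM, the counts of a gene scaled to a common library size, with TMM factors, which correct for differences in library composition. The labelled tissue was checked on 8 fat body markers: apolpp, the lipophorin precursor, averaged 10051 CPM and FASN1, a fatty acid synthase, 4440 CPM, while Lsp2, a storage protein gene, averaged 2.42 CPM. Other cell types were also present, with summed CPM over the libraries of 20440 to 84270 for oenocyte markers, 1280 to 5076 for muscle markers and 13.6 to 5103 for ovary and egg markers. None of the marker genes in these lists was at 0 in all libraries. The gene of the transgene, foxo, stood at 157, 160.3, 240.1 and 95.02 CPM in S106>UASfoxo switch, and at 93.3, 72.5, 177 and 78.2 CPM in S106>UASfoxo control. In S106 switch it stood at 90.8, 143, 155 and 90.6 CPM, and in S106 control at 100.1, 138, 118, 194 and 83.3 CPM. The groups overlapped, and the switch effect on foxo in S106>UASfoxo was 0.63 ± 0.35 on the log2 scale (SE) with an edgeR adjusted p of 0.457. Whether a group's libraries are separate cultures or pools of flies is not in the labels, and the tests see only how far these libraries spread, which may be technical. In whole tissue, fewer cells of a type and less RNA per cell cannot be told apart.

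In the BDGP6 annotation, whose coordinates need not be those of the authors' build, Atg8a lies on X from 10764878 to 10768338, Atg5 on X from 7314622 to 7323770 and ref(2)P on 2L from 19542468 to 19545548. Atg1 lies on 3L from 12784429 to 12805116, Atg18a on 3L from 8186857 to 8191118, Atg13 on 3R from 8349815 to 8352817 and Atg16 on 3R from 29827281 to 29835101. Mitf lies on chromosome 4 from 1198852 to 1224467, and Atg7 and Atg9 on 2R. The annotated exons of ref(2)P share 173 bp, or 7.22 percent of their length, with CG10337 on the opposite strand, and whether counting used strand is not stated in the labels, so a small part of the ref(2)P count is uncertain. None of the other 9 genes shared exon bases with another gene in this annotation, and none of the 10 had counts identical to another row.

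Atg8a and ref(2)P stood far above the other 8 genes. On the scale of CPM per kb of exon, the mean level over the 17 libraries was 435 ± 143 for Atg8a (SD), which is the ubiquitin-like protein of the autophagosome membrane. It was 324 ± 89.1 for ref(2)P, the cargo receptor. Next came Atg13, a subunit of the Atg1 kinase complex, at 27.5 ± 4.71 CPM per kb. These placed Atg8a and ref(2)P at the 97.9th and 97.4th percentiles of the mean levels of all genes tested.

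The middle of the order was not resolved by the libraries. Atg13, Atg18a at 27.0 ± 10.3, Mitf at 22.7 ± 6.55, Atg1 at 22.1 ± 7.39, Atg9 at 19.9 ± 9.89 and Atg5 at 15.5 ± 2.74 CPM per kb (SD) followed each other closely. Atg13 exceeded Atg18a in 8 of 17 libraries, Atg18a exceeded Mitf in 9, Mitf exceeded Atg1 in 8, and Atg9 exceeded Atg5 in 10. The order was firmer at both ends: Atg8a exceeded ref(2)P in 14 of 17 libraries, ref(2)P exceeded Atg13 in all 17, and Atg16, at 11.8 ± 2.14 CPM per kb, exceeded Atg7, at 6.40 ± 1.14, in 16. Atg7, the enzyme that activates both Atg8a and Atg12, thus had the lowest level per kb of the 10.

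**Figure D1:**
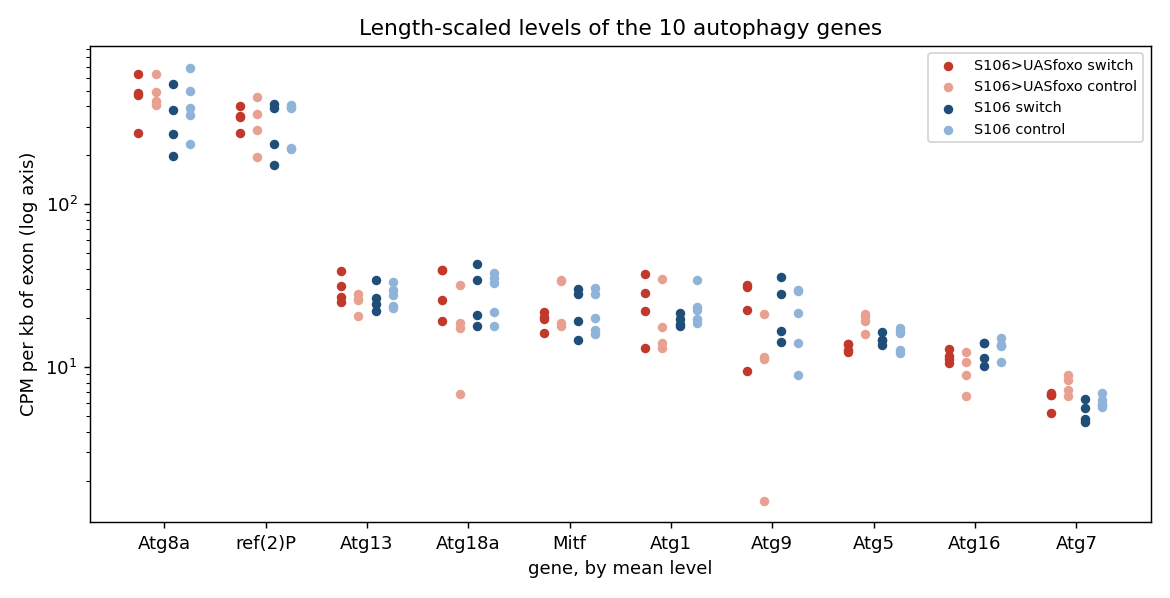
Level of each of the 10 genes in each library, as CPM per kb of exon on a log axis, with genes ordered by their mean over 17 libraries and libraries coloured by group. Atg8a and ref(2)P, with means of 435 and 324 CPM per kb, sit apart from the other 8 genes, whose means run from 27.5 to 6.40.

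The genes also differed in how steady they were. The SD of log2 CPM about the group means, with 13 residual degrees of freedom, was 0.17 for Atg5 and 0.18 for Atg7, against a median of 0.55 over all genes tested, and only 2.17 and 2.98 percent of those genes were steadier. Atg13 and Atg16 had SDs of 0.24 each. Atg9, the membrane protein of the donor vesicles, had the widest spread of the 10 at 1.01, and its CPM differed 22.7-fold between its lowest and highest library. Atg18a, a phosphoinositide-binding protein that works with Atg2 at the growing membrane, followed at 0.64 with a 6.17-fold range. Atg8a, ref(2)P, Atg1 and Mitf lay between, with SDs of 0.52, 0.48, 0.48 and 0.42.

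The first question is how the 10 genes stood a week after RU486 feeding to induce dFOXO had ended, with S106>UASfoxo switch set against S106>UASfoxo control. None of the 10 genes passed edgeR's quasi-likelihood test at a Benjamini-Hochberg adjusted p of 0.05 over all genes tested, where 0 of 9819 genes did, a share of 0 percent. DESeq2 called 1 of the 10, Atg5, against 0.772 percent of the genes it adjusted. At an unadjusted p under 0.05 edgeR gave 0 of the 10 as higher and 1 as lower, again Atg5, against 10.1 and 2.82 percent of all genes. By sign, 6 of the 10 log2 fold changes were above 0, against 48.5 percent of all genes, with a median of 0.17 over the 10 and −0.02 over all genes. With single libraries left out the median of the 10 ran from 0.0065 without S106>UASfoxo control replicate 4 to 0.29 without S106>UASfoxo control replicate 2, and it was 0.041 with library round as a block. The medians over all genes in these fits were −0.015, 0.030 and 0.049, in the same order. Without S106>UASfoxo control replicate 4 there were 5 above 0, and without S106>UASfoxo control replicate 3 there were 7, with 4 of the 10 at an unadjusted p under 0.05 against 17.3 percent of all genes. Without S106>UASfoxo switch replicate 4 there were 2 at that level, Atg5 and Atg9, against 17.0 percent. With title number as a block 3 of the 10 were at that level, against 18.4 percent of all genes. With library round as a block it was 2, against 18.2 percent.

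Atg5 forms the Atg12-Atg5 conjugate, which together with Atg16 directs Atg8a to the membrane. It stood at 17.6, 19.7, 18.1 and 19.5 CPM in S106>UASfoxo switch, and at 27.0, 29.1, 22.6 and 29.8 CPM in S106>UASfoxo control. Every switch library was below every control library, as was the case for 1.89 percent of all genes. The means were 18.7 ± 1.04 and 27.2 ± 3.25 CPM (SD, n = 4 each). The log2 fold change was −0.54 ± 0.16 (SE), with a 95% interval of −0.88 to −0.20, an unadjusted edgeR p of 0.00404 and an adjusted p of 0.273. The DESeq2 adjusted p was 0.0491. Over the 14 alternative fits of this comparison the log2 fold change ran from −0.62 to −0.49 and the adjusted p from 0.0491 to 0.705.

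Fold changes in this comparison went with exon length over all genes. Split by exon length into 3 classes of nearly equal size, the short class, with up to 1471 bp of exon, had a median log2 fold change of −0.22, the middle class −0.01 and the long class 0.25. Atg5, with 1418 bp, was in the short class, where 5.15 percent of genes were lower at an unadjusted p under 0.05. Atg7, Atg8a, Atg16 and ref(2)P were in the middle class, and Atg1, Atg9, Atg13, Atg18a and Mitf in the long class. The part of exon length in the values of single genes was not tested.

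Among the other conjugation genes, Atg7 stood at 16.1, 16.2, 16.6 and 12.5 CPM in S106>UASfoxo switch, and at 15.8, 21.5, 20.0 and 17.3 CPM in S106>UASfoxo control. These overlapped, with a log2 fold change of −0.28 ± 0.17 (SE) and an edgeR adjusted p of 0.504. Atg16 ranged from 27.3 to 33.1 CPM in switch and from 17.1 to 31.6 CPM in control, with a log2 fold change of 0.26 ± 0.19. Atg8a stood at 466, 1066, 821 and 794 CPM in S106>UASfoxo switch, and at 732, 836, 1074 and 687 CPM in S106>UASfoxo control. The switch group held both the lowest Atg8a library and one near the highest. The log2 fold change of Atg8a was −0.08 ± 0.36, and its 95% interval, −0.84 to 0.68, spans folds of 0.557 to 1.60.

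Both genes of the membrane supply, Atg9 and Atg18a, had the highest fitted values of the 10, with wide intervals. Atg9 stood at 63.3, 89.8, 88.2 and 26.9 CPM in S106>UASfoxo switch, and at 31.5, 32.7, 59.8 and 4.28 CPM in S106>UASfoxo control. The groups overlapped, since switch replicate 4 was below 3 of the 4 control libraries. The log2 fold change was 1.06 ± 0.59 (SE), with a 95% interval of −0.20 to 2.33 and an edgeR adjusted p of 0.461. Without control replicate 4, where Atg9 had 39 counts, the lowest count of any of the 10 genes, it was 0.70, and without control replicate 3 it was 1.55. Atg18a stood at 75.2, 115.1, 114.9 and 56.0 CPM in switch, and at 54.5, 50.6, 93.6 and 20.1 CPM in control, and its log2 fold change was 0.72 ± 0.41, at an adjusted p of 0.473, or 0.45 without control replicate 4 and 1.11 without control replicate 3.

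The initiation kinase genes did not separate the groups. Atg1, the kinase itself, stood at 118, 91.3, 154 and 53.9 CPM in S106>UASfoxo switch, and at 58.2, 73.3, 144 and 54.3 CPM in S106>UASfoxo control. The lowest libraries of both groups were nearly alike, and the highest were 154 and 144 CPM. The log2 fold change was 0.34 ± 0.33 (SE) for Atg1 and 0.28 ± 0.19 for Atg13, with edgeR adjusted p-values of 0.712 and 0.572. Single libraries moved these: Atg1 was 0.094 without switch replicate 3 and 0.75 without control replicate 3, and Atg13 was 0.14 without switch replicate 2.

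ref(2)P, whose transcript level is read here and not its protein, stood at 819, 956, 831 and 660.4 CPM in S106>UASfoxo switch, and at 681, 1089, 862 and 466 CPM in S106>UASfoxo control. All switch libraries lay within the span of the control libraries. The log2 fold change was 0.08 ± 0.33 (SE), with a 95% interval of −0.62 to 0.77, and it was −0.11 without control replicate 4. Mitf stood at 92.7, 74.7, 91.1 and 100.5 CPM in switch, and at 155, 85.4, 81.6 and 156 CPM in control. The control libraries formed a high and a low pair, with 3 of the 4 switch libraries between them, and the log2 fold change was −0.41 ± 0.29 with an edgeR adjusted p of 0.588.

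**Figure D2:**
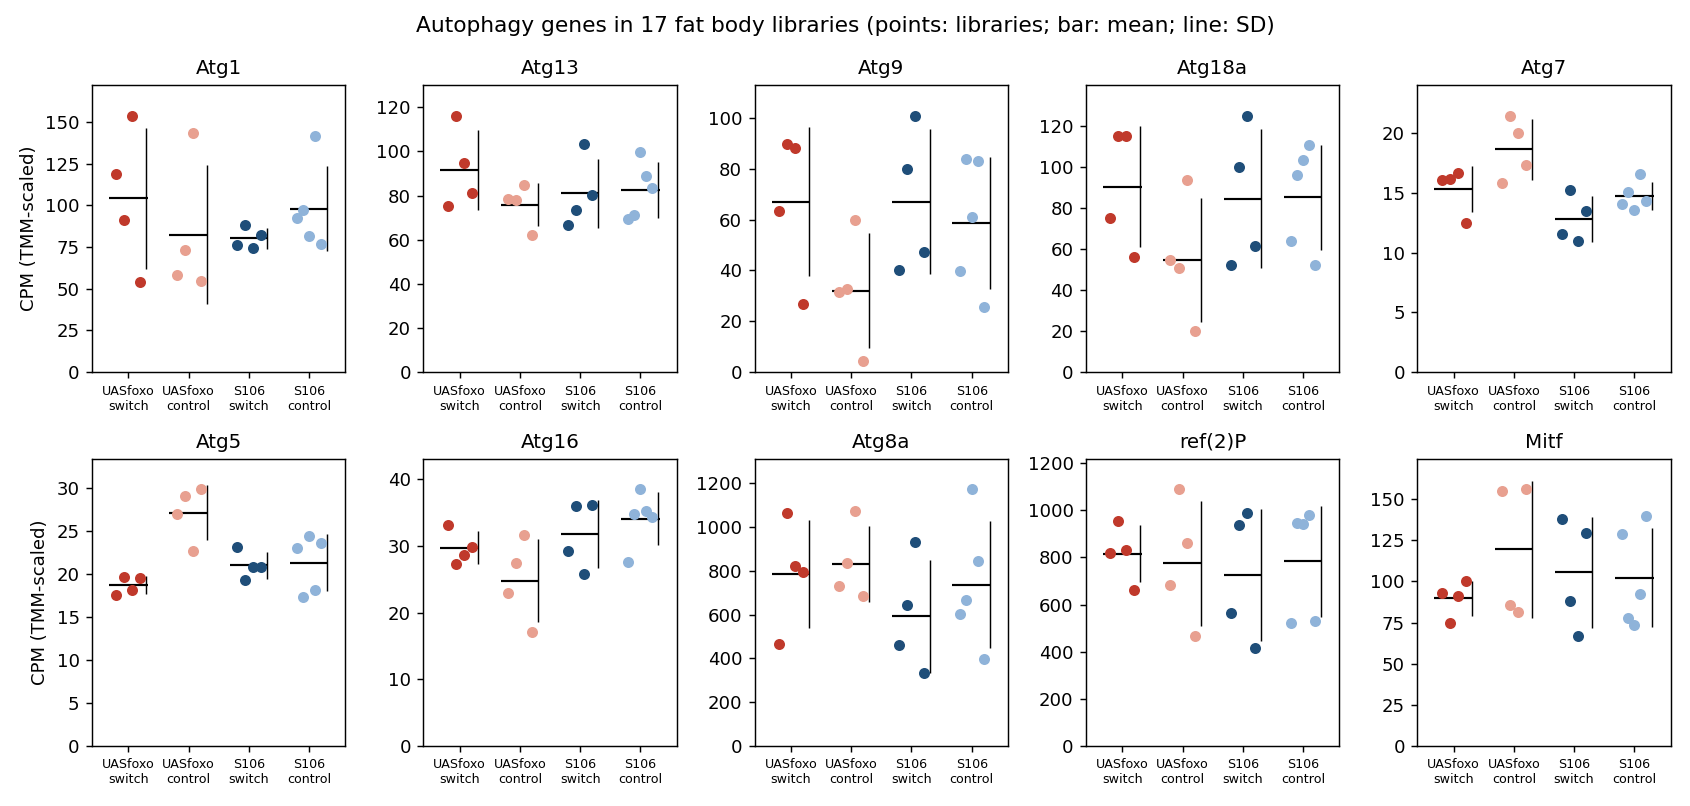
CPM of each gene in every library, 1 panel per gene, with S106>UASfoxo switch, S106>UASfoxo control (both shortened to UASfoxo), S106 switch and S106 control from left to right; points are libraries, horizontal bars group means and vertical lines the SD. Atg5 is the one gene whose S106>UASfoxo switch libraries, 17.6 to 19.7 CPM, all lie below the S106>UASfoxo control libraries, 22.6 to 29.8 CPM.

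The rest of the pathway, in lists also chosen with earlier results of these data known, gave no called gene by edgeR either. Of 60 tested pathway genes outside the 10, 0 passed over all genes tested, 9 were higher and 1 was lower at an unadjusted p under 0.05, and 38 had a log2 fold change above 0, with a median of 0.21. These shares can be read against the 10.1, 2.82 and 48.5 percent of all genes. Of the 60, 30 were in the long class by exon length. In that class 17.7 percent of genes were higher at an unadjusted p under 0.05, and 68.2 percent had a log2 fold change above 0. Without S106>UASfoxo control replicate 3, 16 of the 60 were higher and 1 lower at that level, against 17.3 percent of all genes in either direction. Without S106>UASfoxo control replicate 4 there were 8 higher and 2 lower, against 6.71 percent. Without S106>UASfoxo switch replicate 1 there were 5 higher and 1 lower, against 8.16 percent. With title number as a block 13 were higher and 1 lower, against 18.4 percent. With library round as a block 13 were higher and 2 lower, against 18.2 percent. Counting the 10 genes in their lists, all 5 genes of the list for Atg9 vesicles and lipid transfer were above 0, with a median of 0.72, and 5 of 6 PI3 kinase complex genes were, with a median of 0.73. The 9 conjugation genes had a median of −0.09, with 3 above 0.

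Single genes at an unadjusted p under 0.05 came from several steps. The mean of Pi3K59F, the fly Vps34 lipid kinase that marks the forming membrane, was 18.0 ± 9.79 CPM in S106>UASfoxo switch libraries against 5.52 ± 2.40 CPM in S106>UASfoxo control libraries (SD, n = 4 each). Its log2 fold change was 1.71 ± 0.58 (SE), with an edgeR adjusted p of 0.274. Pi3K59F averaged 18.8 ± 7.61 CPM in S106 switch and 16.5 ± 10.4 CPM in S106 control. Rubicon, a partner of that complex, had a log2 fold change of 0.82 ± 0.29, and Pink1, the kinase that marks damaged mitochondria for removal, 1.32 ± 0.44. Of the genes for fusion with lysosomes, car and dor, which encode the Vps33 and Vps18 proteins of a tethering complex, had log2 fold changes of 1.17 ± 0.34 and 0.95 ± 0.35. lt, the Vps41 gene, averaged 58.5 ± 0.583 CPM in switch and 76.0 ± 7.59 CPM in control, with a log2 fold change of −0.38 ± 0.13, an edgeR adjusted p of 0.274 and a DESeq2 adjusted p of 0.0339. DESeq2 called lt alone of the 60.

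Hexo2, a hexosaminidase gene, had a log2 fold change of 1.72 ± 0.64 (SE). Among the genes of upstream control, AMPKalpha, the energy-sensing kinase that promotes autophagy, had a mean of 70.2 ± 36.2 CPM in S106>UASfoxo switch libraries against 21.7 ± 9.79 CPM in S106>UASfoxo control libraries (SD, n = 4 each), a log2 fold change of 1.69 ± 0.55. gig, the Tsc2 inhibitor of TOR signalling, had a log2 fold change of 0.79 ± 0.26, and raptor, a TOR complex subunit, 0.91 ± 0.34. AMPKalpha averaged 65.4 ± 28.7 CPM in S106 switch and 51.8 ± 30.0 CPM in S106 control. In S106>UASfoxo control, S106 switch and S106 control Hexo2 averaged 14.8, 34.3 and 28.7 CPM, and gig 18.6, 32.3 and 29.8 CPM. AMPKalpha, Hexo2, gig and raptor each had their lowest group mean in S106>UASfoxo control. Both promoting and restraining genes of autophagy were therefore among those above 0. By sign alone, with 0 marker genes called by edgeR, 9 of 10 gut enterocyte markers were above 0 in this comparison, with a median log2 fold change of 2.56, as were 10 of 10 hemocyte markers (0.56), 14 of 19 ovary and egg markers (1.06), 3 of 3 yolk protein genes (0.81), 4 of 5 spermatheca markers (0.75), 9 of 11 muscle markers (0.20) and 5 of 6 neuron markers (0.46). For oenocyte markers it was 1 of 3 (−0.17), and for fat body markers 5 of 8 (0.16). Marker signs leaned in other comparisons too. In S106 switch against S106 control 19 of 19 ovary and egg markers and 0 of 11 muscle markers were above 0. In S106>UASfoxo control against S106 control 1 of 10 gut enterocyte markers was, with a median of −2.05. Summed gut enterocyte markers ran from 57.0 to 697 CPM in S106>UASfoxo switch, against 47.3 to 86.2 CPM in S106>UASfoxo control. The part of these markers in the values of the pathway genes was not tested.

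**Figure D3:**
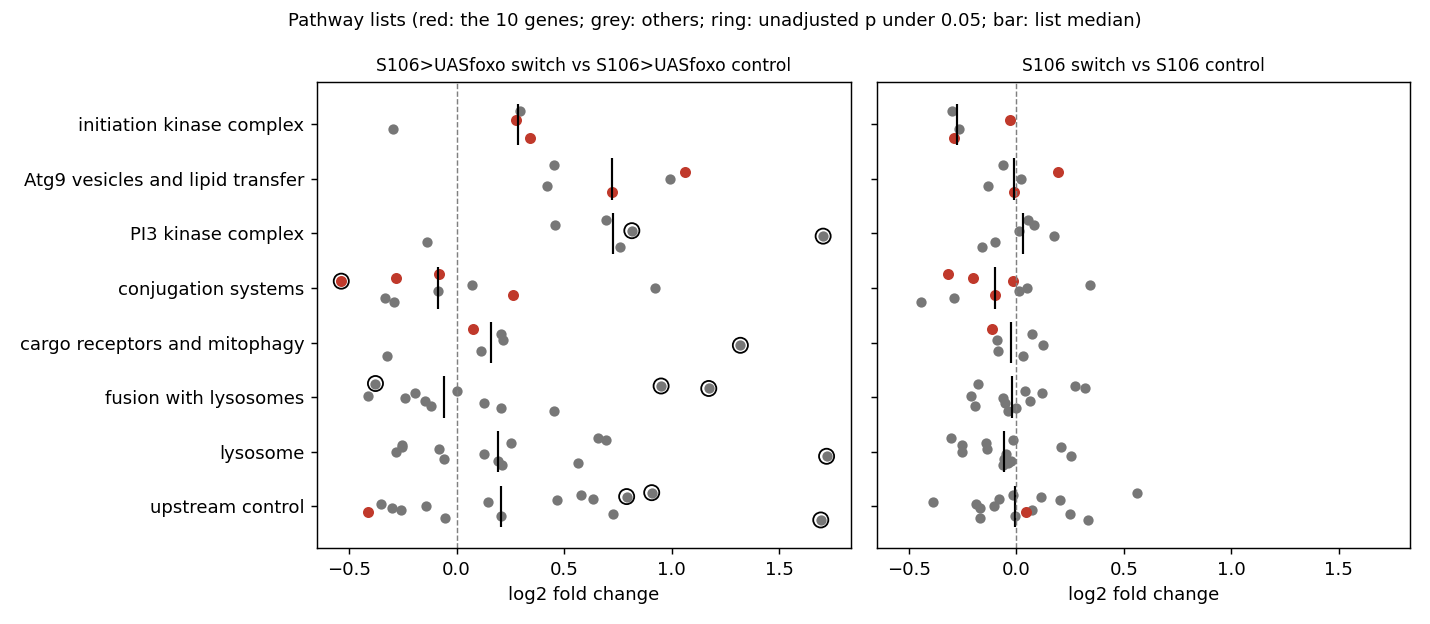
Log2 fold changes of the tested genes of 8 pathway lists, for S106>UASfoxo switch against S106>UASfoxo control on the left and S106 switch against S106 control on the right; red points are the 10 genes, grey points other pathway genes, rings an unadjusted edgeR p under 0.05 and bars list medians. Rings appear in the left panel, 9 of them on higher grey points, and the right panel has none.

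Without the transgene, the same RU486 schedule was read by setting S106 switch against S106 control. None of the 10 genes passed edgeR, where 0 of 9819 genes did, a share of 0 percent. DESeq2 called none of them either and 0.0102 percent of all genes. At an unadjusted p under 0.05 there were 0 of the 10 by edgeR, and 0 of the 60 other pathway genes, against 0.693 percent of all genes. With title number as a block there were 0 of the 10, and 1 of the 60 was lower, against 6.09 percent of all genes. Of the 10 log2 fold changes 2 were above 0, against 51.6 percent of all genes, and the values ran from −0.32 to 0.19 with a median of −0.06. Leaving out single libraries gave 1 to 4 above 0.

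The 4 steadiest genes had the narrowest intervals here. Atg5 stood at 23.1, 19.3, 20.9 and 20.8 CPM in S106 switch, and at 23.0, 17.3, 24.5, 18.1 and 23.6 CPM in S106 control. Its log2 fold change was −0.02 ± 0.15 (SE), with a 95% interval of −0.34 to 0.30. Atg7, at −0.20 ± 0.16, had an interval of −0.54 to 0.15. Atg13, at −0.03 ± 0.18, and Atg16, at −0.10 ± 0.18, had intervals of −0.41 to 0.36 and −0.48 to 0.28, so that 2-fold changes lie outside all 4 of them. For Atg9, at 0.19 ± 0.56, the interval of −0.99 to 1.37 leaves a doubling inside it.

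Atg8a stood at 459, 643, 929.9 and 334 CPM in S106 switch, and at 604, 665, 1172, 845 and 397 CPM in S106 control. Its log2 fold change of −0.32 ± 0.34 (SE) was the lowest of the 10 here and ran from −0.62 to −0.09 with single libraries left out. The library with the lowest Atg8a, S106 switch replicate 4, also had the lowest ref(2)P at 415 CPM, the lowest fat body marker sum at 6859 CPM and the highest ovary and egg marker sum at 5103 CPM. Mitf in that library was 129.6 CPM, above the 92.4 CPM median of S106 control. The part of these marker levels in the values was not tested.

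The switch effect in S106>UASfoxo minus that in S106 asks whether the transgene alters the response to the inducer. edgeR and DESeq2 each called none of the 10 genes and 0 percent of all genes. At an unadjusted p under 0.05 edgeR gave 1 of the 10, Atg5, as lower, against 0.509 percent of all genes, and 0 of the 60 other pathway genes. These counts moved with the fit: 7 of the 60 were higher without S106>UASfoxo control replicate 3, and likewise without S106>UASfoxo switch replicate 4, where 5.23 and 5.15 percent of all genes passed in either direction. Other fits gave fewer. Without S106>UASfoxo control replicate 4 there were 0 of the 10 and 0 of the 60, against 0.952 percent of all genes. It was the same without S106>UASfoxo switch replicate 3, against 1.14 percent. With library round as a block 12 of the 60 were higher and 1 lower, and 3 of the 10 passed, where 9.24 percent of all genes passed in either direction. With title number as a block 9 of the 60 were higher and 1 lower, and 2 of the 10 passed, where 11.9 percent of all genes did. Atg5 had a difference of −0.52 ± 0.22 (SE) on the log2 scale, with a 95% interval of −0.99 to −0.06, an unadjusted p of 0.0304 and an edgeR adjusted p of 0.95. Over 22 alternative fits the difference ran from −0.60 to −0.45, and the unadjusted p from 0.00907 to 0.0630. Of the 10 differences 7 were above 0, against 52.9 percent of all genes, the widest being 0.87 ± 0.81 for Atg9, 0.73 ± 0.57 for Atg18a and 0.63 ± 0.46 for Atg1. None of these intervals excluded 0. Over the 3 exon length classes the differences had medians of −0.14, 0.03 and 0.23 from short to long. In the long class, which holds Atg9, Atg18a and Atg1, 67.4 percent of genes were above 0. In the short class, which holds Atg5, it was 38.6 percent. The part of exon length in these values was not tested. With single libraries left out Atg9 ran from 0.50 to 1.36 and Atg18a from 0.46 to 1.123, both lowest without S106>UASfoxo control replicate 4 and highest without S106>UASfoxo control replicate 3. Atg1 ran from 0.38 without S106>UASfoxo switch replicate 3 to 1.04 without S106>UASfoxo control replicate 3.

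The genotypes without inducer were compared as S106>UASfoxo control against S106 control, which shares its S106>UASfoxo control libraries with the first comparison. No gene of the 10 was called by edgeR, which called 4 of 9819 genes, or 0.0407 percent, nor by DESeq2, which called 0.184 percent. At an unadjusted p under 0.05, 2 of the 10 were higher, against 2.20 percent of all genes, and 1 was lower, against 8.83 percent. Libraries of the same round deviated together in these groups, and with library round as a block 5 of the 10 passed that level in either direction, against 16.8 percent of all genes: Atg5 and Atg7 were higher, and Atg16, Atg9 and Atg18a lower, at edgeR adjusted p-values of 0.168 to 0.273. Without S106>UASfoxo control replicate 3 there were 5 of the 10 at that level, against 14 percent of all genes. Without S106>UASfoxo control replicate 4 there was 1, Atg7, against 4.94 percent. Of the 10, 4 had a log2 fold change above 0, against 48.5 percent of all genes. The same comparison over the 3 exon length classes had medians of 0.20, −0.04 and −0.23 from short to long.

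The 3 genes past that unadjusted level without the block belong to the conjugation systems. Atg5 averaged 27.2 ± 3.25 CPM in S106>UASfoxo control (SD, n = 4) and 21.3 ± 3.32 CPM in S106 control (n = 5), and its log2 fold change was 0.35 ± 0.15 (SE) at an edgeR adjusted p of 0.419. Atg7 stood at 15.8, 21.5, 20.0 and 17.3 CPM in S106>UASfoxo control, and at 14.1, 15.1, 13.5, 16.5 and 14.3 CPM in S106 control, where 1 library of the first lay below the highest of the second. Its log2 fold change was 0.34 ± 0.16 with an adjusted p of 0.450. Atg16 stood at 23.0, 27.4, 31.6 and 17.1 CPM in S106>UASfoxo control, and at 27.6, 34.8, 38.5, 35.2 and 34.3 CPM in S106 control, and its log2 fold change was −0.46 ± 0.18 at an adjusted p of 0.401. The partners Atg5 and Atg16 thus had fitted values of opposite sign.

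Atg9 averaged 32.1 ± 22.7 CPM in S106>UASfoxo control (SD, n = 4) and 58.7 ± 25.9 CPM in S106 control (n = 5), with a log2 fold change of −0.87 ± 0.57 (SE), or −0.50 if S106>UASfoxo control replicate 4 was left out and −1.36 if replicate 3 of that group was. Outside the 10, 2 of 60 pathway genes were higher and 8 lower at an unadjusted p under 0.05, against 2.20 and 8.83 percent of all genes, and 0 passed edgeR or DESeq2 over all genes. Without S106>UASfoxo control replicate 4 there were 1 higher and 4 lower, against 4.94 percent of all genes in either direction. Without S106>UASfoxo control replicate 3 there were 2 higher and 12 lower, against 14 percent. With library round as a block there were 2 higher and 13 lower, against 16.8 percent. Pi3K59F had a log2 fold change of −1.58 ± 0.55, car −1.11 ± 0.32 and Pink1 −1.10 ± 0.42, with edgeR adjusted p-values of 0.392, 0.392 and 0.394. spin, a lysosomal efflux transporter gene, averaged 114 ± 44.0 CPM in S106>UASfoxo control and 251 ± 116 CPM in S106 control, a log2 fold change of −1.14 ± 0.42. Npc2a, a sterol-binding protein of the lysosome, had a log2 fold change of 0.49 ± 0.20. Of the 15 upstream control genes 0 were higher and 2 lower at that unadjusted level, and the lowest log2 fold change was −1.26. AMPKalpha averaged 21.7 ± 9.79 CPM in S106>UASfoxo control and 51.8 ± 30.0 CPM in S106 control.

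S106>UASfoxo switch against S106 switch sets the genotypes side by side after RU486. edgeR called none of the 10 genes and 0.0509 percent of all genes, and DESeq2 none of the 10 and 0.0919 percent. At an unadjusted p under 0.05 there were 0 of the 10, and 0 of the 60 other pathway genes, against 1.57 percent of all genes. Of the 10 log2 fold changes 6 were above 0, against 46.2 percent of all genes, and they ran from −0.23 for Mitf to 0.41 for Atg8a. The mean of Atg5 was 18.7 ± 1.04 CPM in S106>UASfoxo switch, against 21.0 ± 1.58 CPM in S106 switch (SD, n = 4 each), a log2 fold change of −0.17 ± 0.16 (SE) with a 95% interval of −0.51 to 0.17. For Atg9 the value was −0.001 ± 0.59, where S106>UASfoxo switch averaged 67.1 ± 29.4 CPM and S106 switch 67.2 ± 28.4 CPM. The S106>UASfoxo control group was thus the one in which the mean of Atg5 was highest and that of Atg9 lowest.

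**Figure D4:**
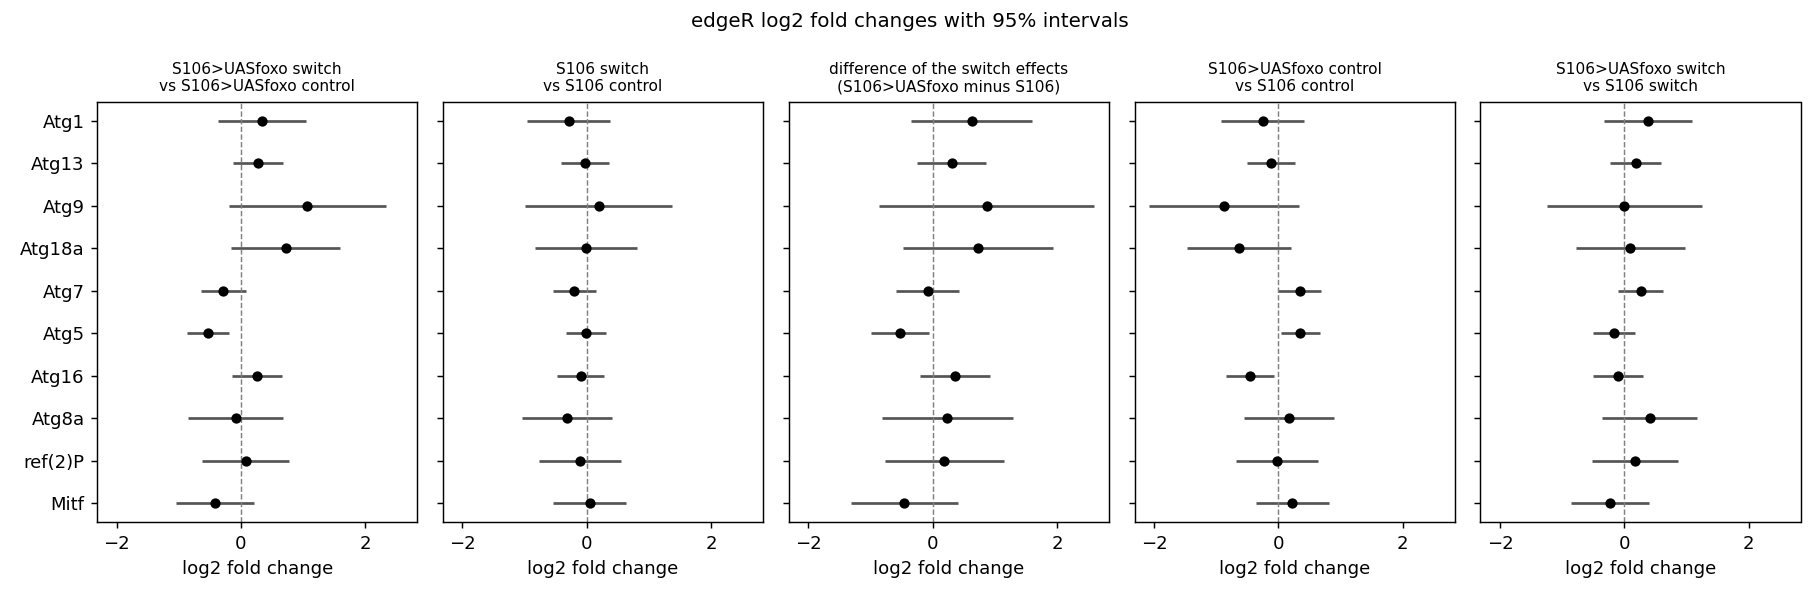
Log2 fold changes of the 10 genes (points) with 95% intervals (lines) from edgeR in the 5 comparisons, ordered by role from Atg1 to Mitf; the dashed line marks no difference. The interval of Atg5 lies below 0 in the first panel, −0.88 to −0.20, and in the panel for the difference of the switch effects, −0.99 to −0.06, while the intervals of Atg9 are the widest in each panel.

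Across all 17 libraries the 10 genes did not vary as 1 block. In S106>UASfoxo control replicate 4, log2 CPM was 3.40 below the 17-library mean of each gene for Atg9 and 0.64 above it for Mitf. That library also had the lowest yolk protein gene sum, 14606 CPM against 25744 to 126210 CPM in the others, and the lowest hemocyte marker sum, 143 CPM. In S106 switch replicate 3 the order was the reverse, with Atg9 at 1.11 above its mean and Mitf at 0.59 below, a yolk protein sum of 126210 CPM and an ovary and egg marker sum of 32.7 CPM. In S106 control replicate 5 Atg9 was 0.87 below and Mitf 0.48 above, with a yolk protein sum of 25744 CPM. The part of the cell makeup of the libraries in these values was not tested.

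**Figure D5:**
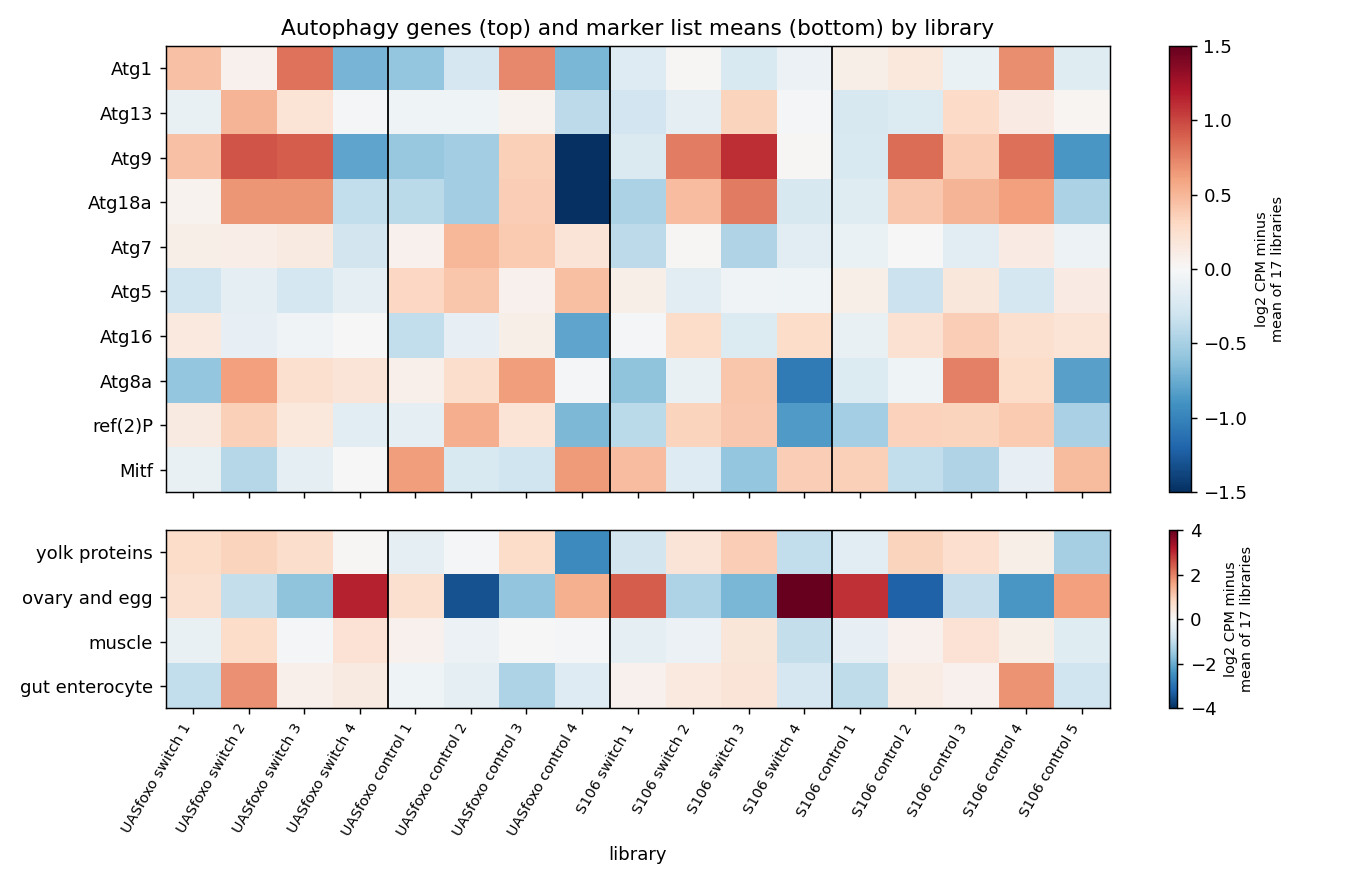
Log2 CPM of each gene minus its mean over 17 libraries (top; colours saturate at 1.5 either way) and the same for the mean log2 CPM of 4 marker lists (bottom; saturating at 4), with libraries in columns and black lines between groups (UASfoxo stands for S106>UASfoxo). Atg9 is at −3.40 in S106>UASfoxo control 4, where Mitf is at 0.64 and the yolk protein row is at its lowest.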

How the data were processed

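The authors deposited raw read counts per gene with 1 column per fat body library. FastQC, HISAT2, SAMtools, featureCounts and DESeq2 are listed, without roles, in the submitters' processing notes, and the kit was directional per the labels' protocols. Tool versions, genome build, annotation, strand option and any use of barcodes in counting: not given in the sources used here. Of 35 libraries in the series, 18 gut libraries were not used here. Symbols were matched to 14537 of 14649 identifiers. All 17 libraries entered 1 edgeR 4.0.16 fit with 4 groups, in R 4.3.3, after filterByExpr and TMM scaling, with the robust quasi-likelihood test and Benjamini-Hochberg adjustment over 9819 genes, which held 99.92 percent of counts; the threshold was 0.05. A prior count of 2 was added for log2 CPM of single libraries. Libraries of 1 group differed by more than sampling noise.

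The genes and pathway lists were chosen with earlier results of these data known. Named pathway genes are up to 3 per list with an unadjusted p under 0.05. After the data were seen, 4 list names were replaced by current symbols; 4 listed pathway genes were not analysed. Alternatives were RLE size factors, no filter, DESeq2 1.42.0, the compared groups alone, blocks for title number and library round (5 runs of consecutive library numbers), and each library left out. Title numbers paired the libraries unevenly, by the correlation of deviations of same-numbered libraries, each from its own group mean. It ran from −0.42 to 0.770 between S106 switch and S106 control and from −0.0633 to 0.584 between S106>UASfoxo switch and S106>UASfoxo control. Between the 2 control groups it ran from −0.518 to 0.737, and between the 2 switch groups from −0.0459 to 0.0389. Library rounds correlated at 0.406 to 0.737 between S106>UASfoxo control and S106 control. In the other comparisons of groups library rounds correlated at −0.42 to 0.783, so there they paired the libraries unevenly too. Counts of the other pathway genes without single libraries were added after seeing the data.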

Additional observations from a re-analysis of the deposited data

Results flagged for a closer look

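Among 40 sets of libraries examined, 1 per gene and group, 1 held a library set apart from the rest. Atg7 in S106>UASfoxo switch replicate 4 was at 3.66 log2 CPM, against 4.02 to 4.07 in the other 3 libraries of its group. The gap was 0.881 of the whole range of the group. Chance sets apart about 1 in 20 such sets, so 1 of 40 is no more than that. Without this library the log2 fold change of Atg7 in S106>UASfoxo switch against S106>UASfoxo control was −0.19, against −0.28 with it.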

How the results depend on the processing

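Of 800 recomputed log2 fold changes of the 10 genes, 749 kept their direction, 51 reversed and 1, Atg5 in S106>UASfoxo switch against S106>UASfoxo control under DESeq2, came under an adjusted p of 0.05. DESeq2 thus called 1 of the 10 there, and over all genes it called 61 in that comparison, 1 for S106 switch against S106 control, 18 for S106>UASfoxo control against S106 control and 9 for S106>UASfoxo switch against S106 switch; the cause was not tested. With the compared groups fitted alone edgeR called 0 genes for S106>UASfoxo control against S106 control and 1 for S106>UASfoxo switch against S106 switch. With single libraries left out these counts were 0 to 1 and 2 to 4. Title numbers paired the libraries unevenly. With title number as a replicate block 0 of the 10 were called in each comparison, while all genes called for S106>UASfoxo control against S106 control came to 1. With library round as a block they came to 2, and 0 of the 10 were called.

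The cause of the reversals was not tested. For S106>UASfoxo control against S106 control ref(2)P was 0.021 with RLE factors and with DESeq2, 0.054 with the groups alone and 0.072 with the round block. For S106>UASfoxo switch against S106>UASfoxo control it was −0.045 with the round block. For S106>UASfoxo switch against S106 switch Atg9 was 0.000221 with the groups alone and 0.23 with the round block. For S106 switch against S106 control Atg5 was 0.025 with the replicate block and 0.021 with the round block, and Atg9 was −0.18 with the replicate block and −0.11 with the round block.

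With single libraries left out, S106 switch against S106 control gave −0.17 to 0.054 for Atg13, −0.26 to 0.16 for Atg18a, −0.082 to 0.039 for Atg5, −0.071 to 0.37 for Atg9, −0.11 to 0.21 for Mitf and −0.30 to 0.081 for ref(2)P. S106>UASfoxo switch against S106 switch gave −0.078 to 0.35 for Atg18a, −0.18 to 0.26 for Atg9 and −0.023 to 0.35 for ref(2)P. S106>UASfoxo switch against S106>UASfoxo control gave −0.26 to 0.065 for Atg8a and −0.11 to 0.29 for ref(2)P. The difference of the switch effects gave −0.18 to 0.011 for Atg7 and −0.00456 to 0.40 for ref(2)P, and ref(2)P ran from −0.23 to 0.16 for S106>UASfoxo control against S106 control. The lowest count of any of the 10 was 39, for Atg9 in S106>UASfoxo control replicate 4, where Atg7 had 158 counts and Atg5 272. The part of depth in these counts was not tested.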

Other observations

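The ratio of ref(2)P to Atg8a, both as CPM per kb of exon, was 1.25, 0.635, 0.716 and 0.589 in S106>UASfoxo switch, and 0.659, 0.922, 0.568 and 0.480 in S106>UASfoxo control. It was 0.870, 1.03, 0.752 and 0.879 in S106 switch, and 0.614, 1.01, 0.568, 0.820 and 0.946 in S106 control. The groups overlapped, and the 3 libraries above 1 came from 3 groups.

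The genes most like 3 of the autophagy genes in rank over the 17 libraries were described by Spearman's rho, with no test, since libraries share groups and cell makeup. For Atg8a they were CG34207 at 0.956, Sar1 at 0.951 and asRNA:CR43812 at 0.951. For ref(2)P they were CG11961 at 0.966, clt at 0.951 and Gel at 0.949. For Mitf they were MED26 at 0.968, ova at 0.966 and PlexA at 0.963. Without the 2 libraries farthest from the median the values ran from 0.929 to 0.964.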
